A study of Mus musculus with 2 samples.

Results

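Rab GTPases and TBC1D proteins were described in 2 RNA sequencing libraries of mouse peritoneal macrophages, 1 labelled Kdm2b-/- and 1 labelled wild type. The members were the genes whose symbol is Rab or Tbc1d followed by a number, 90 of the 34745 listed Ensembl genes: 59 Rab genes and 31 TBC1D genes, among them the antisense RNA Tbc1d22bos. The gene families were chosen from measured values, because Rab12 and Tbc1d23 lay far apart between these libraries. The values of those genes are therefore a description and support nothing beyond themselves.

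Both libraries came from C57BL/6 mice injected with thioglycollate, an irritant medium that recruits macrophages to the peritoneum, and the cells were collected 4 days later. Both were treated with 100 ng/ml of lipopolysaccharide (LPS), a bacterial cell wall component, for 4 h according to the sample characteristics and for 3 h according to the treatment protocol. The sources used here do not give how the Kdm2b allele was made, the age of the mice or whether cells of several mice were pooled. With 1 library per genotype the spread between animals is unknown, so no difference was tested across samples.

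Rab proteins are small GTPases that mark the membranes of the secretory and endocytic routes. Guanine nucleotide exchange factors (GEFs) load them with GTP on a membrane, effectors bind the GTP form and move, tether or fuse the vesicle, and most proteins with a TBC domain are GTPase-activating proteins (GAPs) that switch a Rab off. Prenylation by Rab geranylgeranyl transferase, with the escort protein Chm, lets Rabs insert into membranes, and GDP dissociation inhibitors (GDIs) extract them again. In macrophages these proteins direct phagosome maturation, recycling of surface receptors and secretion of cytokines. Kdm2b is a histone H3 lysine 36 demethylase of the Polycomb complex PRC1.1 whose zinc finger binds unmethylated CpG dinucleotides.

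The values were FPKM, fragments scaled by transcript length and library size, and about 26800000 and 27300000 fragments lay behind the libraries labelled knockout and wild type. Where 2 values of a gene follow each other, the first is that of the library labelled knockout and the second that of the wild-type library. Kdm2b itself was at 0.326 and 0.205 FPKM (about 45 and 29 fragments), so its transcript was not lower where the label says knockout, although loss of a single exon would not appear in a value per gene. All 6 macrophage markers were above the floor of a mean of 1 FPKM, led by Lyz2 (lysozyme) at 11409 and 8945 FPKM and Cd68 at 1753 and 1722 FPKM. Adgre1 (56.9 and 44.3) and Csf1r (33.6 and 28.2) were also higher in the library labelled knockout, while Cd14 (905 and 1136) and Itgam (18.2 and 18.5) were lower. Of the 6 neutrophil markers Ly6g, Mpo and Retnlg were listed at 0 in both libraries, while S100a8 was at 14.6 and 13.8 FPKM, S100a9 at 0.256 and 0.453 and Elane at 0.0811 and 0, a sum of 14.9 and 14.3. Of the 5 T and NK cell markers Cd3d, Cd3e, Cd3g and Ncr1 were listed at 0 in both, and Klrb1c was at 0.0383 and 0.0602. The summed B cell markers were at 1.39 and 8.37 FPKM, most of it Ighm at 0.992 and 6.92. The 4 mast cell and eosinophil markers summed to 0.745 and 1.70 FPKM, most of it Siglecf at 0.533 and 1.58. The 4 dendritic cell markers summed to 0.902 and 0.812 FPKM, and the 6 mesothelial and stromal markers to 338 and 307. Of the latter, Col1a1 (16 and 3.63), Col3a1 (22.9 and 9.54) and Upk3b (32.6 and 25.4) were higher in the library labelled knockout, Msln (2.77 and 4.32) and Krt19 (12.9 and 16.2) were lower, and Dcn stood at 251 and 248. The part of these other cells in the differences below was not tested, and in bulk RNA fewer cells of a type cannot be told apart from less RNA per cell.

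Of the 90 members, 54 reached a mean of 1 FPKM over both libraries, 36 Rab and 18 TBC1D genes, and 36 stayed under it. The most abundant Rab gene was Rab32, which directs traffic to lysosome-related organelles, at 192 and 176 FPKM. It was followed by Rab8b (exocytosis and cell protrusions) at 117 and 123 FPKM and Rab7 (late endosomes, lysosomes and maturing phagosomes) at 99.4 and 118. Next came Rab1b (transport from the endoplasmic reticulum to the Golgi) at 86.9 and 85.2 FPKM and Rab5c (early endosomes) at 87.8 and 78.5. These 5 genes stood in the same order in both libraries except that Rab5c was above Rab1b in the library labelled knockout and below it in the wild-type library.

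TBC1D genes were at lower levels per length of transcript than Rab genes, with a median of the mean FPKM of 4.12 against 19.7 over the members past the floor. The most abundant were Tbc1d15, a GAP of Rab7, at 17.1 and 15.6 FPKM, Tbc1d23 at 21.5 and 6.50, and Tbc1d20, a GAP of Rab1, at 14.2 and 12.5. Tbc1d1, a GAP of the Rabs that carry glucose transporters to the surface, stood at 13.8 and 11.5 FPKM, and Tbc1d13, a GAP of Rab35, at 11.6 and 10.1. The plot of levels shows the 54 genes in order.

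**Figure D1:**
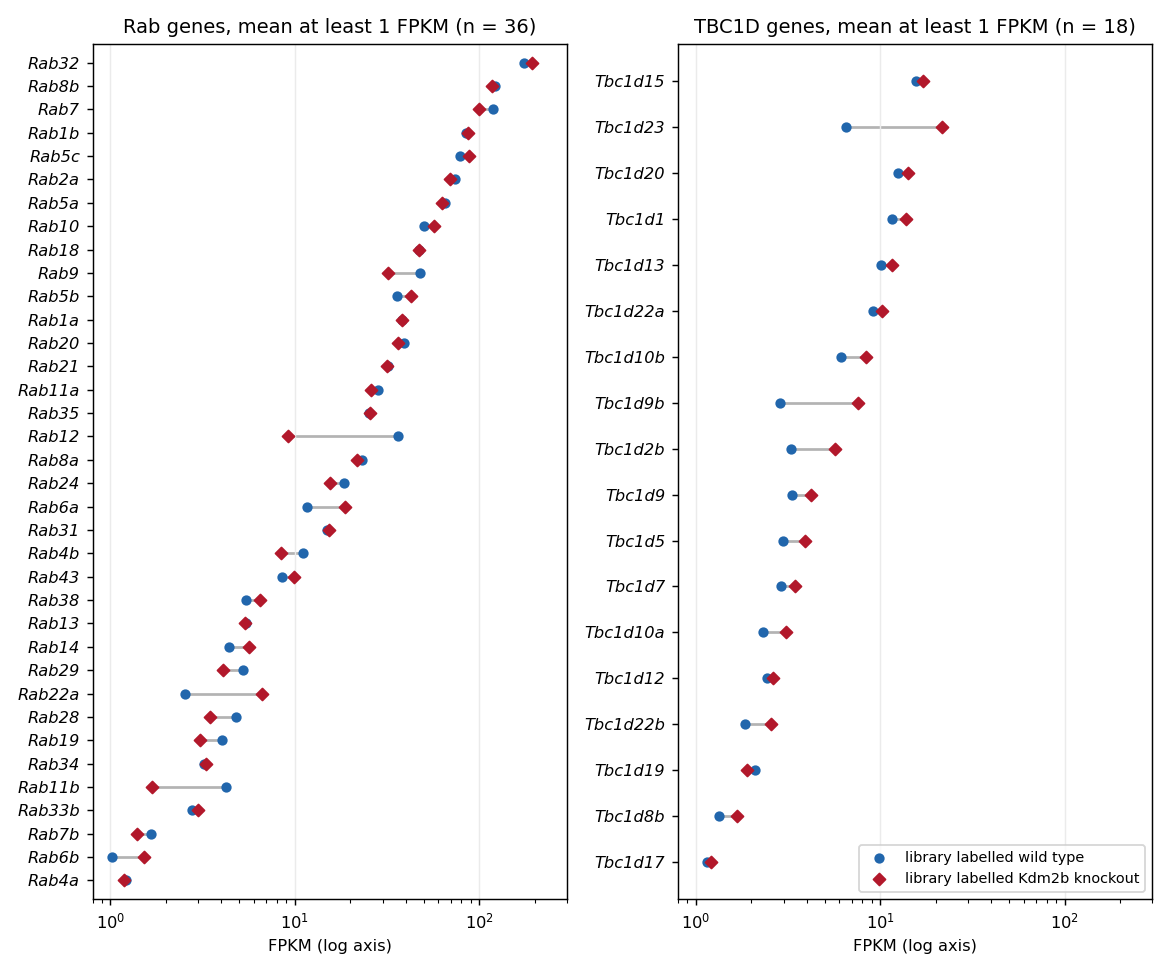
FPKM of each member with a mean of at least 1 FPKM on a log axis, Rab genes on the left and TBC1D genes on the right, 1 point per library (red diamond, labelled knockout; blue circle, labelled wild type). Most pairs of points nearly touch, while Rab12 (9.21 and 36.3 FPKM), Tbc1d23 (21.5 and 6.50), Rab22a (6.67 and 2.53), Tbc1d9b (7.59 and 2.85) and Rab11b (1.67 and 4.22) stand apart.

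Differences are given as the log2 ratio of FPKM + 1, knockout-labelled over wild-type library, which understates the difference of low genes. Intervals are exact 95% counting intervals of the plain FPKM ratio from estimated fragments; they cover counting error only. On this scale 3 members were at least 2-fold higher in the library labelled knockout (Tbc1d23, Tbc1d9b and Rab22a), where 0.865% of the 9022 genes past the floor were, and 1 was at least 2-fold lower (Rab12), where 1.02% were. At a 1.5-fold difference the counts were 5 higher and 2 lower, where 4.69% and 2.79% of all genes past the floor were. Since the families were chosen for differences in this same comparison, nothing is read from these counts. The nearest members outside the 2-fold limit were Rab11b at -0.97 on the lower side and Tbc1d2b and Rab6a, both at 0.64, on the higher side. Once the trend of the ratio with transcript length and GC content over all genes was taken out, 1 member was at least 2-fold higher (Tbc1d23) and 2 were at least 2-fold lower (Rab12 and Rab11b).

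Rab12 works on recycling and late endosomes, where it is activated by Dennd3, is a substrate of the kinase Lrrk2 and takes part in the degradation of the transferrin receptor. In the library labelled knockout it was at 9.21 FPKM, against 36.3 in the library labelled wild type, from about 511 and 2050 fragments. It was thus 3.94-fold lower in FPKM in the library labelled knockout, with a log2 ratio of -1.87 from FPKM + 1 and an interval of -2.12 to -1.84. Rab12 made up 0.766% of the summed Rab FPKM in the library labelled knockout and 2.94% in the wild-type library. The gene lies on the minus strand of chromosome 17 from 66494512 to 66519729 (GRCm38), has 5 annotated transcripts and overlaps no other annotated gene.

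Tbc1d23 has a TBC domain thought to be without GAP activity; it sits at the trans-Golgi, where it links vesicles carrying the WASH complex to the golgins that capture them, and it has been described as an inhibitor of Toll-like receptor signalling in macrophages. In the library labelled knockout its level was 21.5 FPKM, against 6.50 in the library labelled wild type, from about 3058 and 940 fragments. This was 3.31-fold higher in FPKM, with a log2 ratio of 1.59 from FPKM + 1 and an interval of 1.62 to 1.83. Its share of the summed TBC1D FPKM was 15.5% in the library labelled knockout and 6.43% in the wild-type library. The gene lies on the minus strand of chromosome 16 from 57168862 to 57231504, has 10 annotated transcripts and overlaps the antisense RNA Gm16892, which was listed at 0 in both libraries.

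Tbc1d9b, a GAP described for Rab11a, was at 7.59 and 2.85 FPKM, with a log2 ratio of 1.16 and an interval of 1.25 to 1.58. Rab22a, which sorts cargo on early and recycling endosomes, was at 6.67 and 2.53 FPKM, with a log2 ratio of 1.12 and an interval of 1.25 to 1.55. Both were thus more than 2-fold apart in plain FPKM (2.67 and 2.64-fold). Tbc1d9b lies on chromosome 11 from 50131396 to 50172785 and Rab22a on chromosome 2 from 173659760 to 173707343, each on the plus strand.

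The sequences just upstream of these 4 genes are shown because these are the members past the 2-fold limit and because the protein named in the labels binds CpG. They are from the RefSeq table for GRCm38.p6, cut at the outermost annotated start so that they hold no base of its annotated transcripts, and read 5′ to 3′ toward it, with CG dinucleotides in capitals. The Rab12 stretch is chr17:66519730-66519920 (minus strand), the Tbc1d23 stretch chr16:57231505-57231716 (minus strand), the Rab22a stretch chr2:173659595-173659759 (plus strand) and the Tbc1d9b stretch chr11:50131110-50131359 (plus strand).
Rab12: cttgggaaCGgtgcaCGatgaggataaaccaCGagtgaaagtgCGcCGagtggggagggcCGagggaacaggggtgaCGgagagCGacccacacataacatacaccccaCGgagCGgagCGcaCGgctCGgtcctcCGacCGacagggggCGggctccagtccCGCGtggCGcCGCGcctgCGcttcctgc
Tbc1d23: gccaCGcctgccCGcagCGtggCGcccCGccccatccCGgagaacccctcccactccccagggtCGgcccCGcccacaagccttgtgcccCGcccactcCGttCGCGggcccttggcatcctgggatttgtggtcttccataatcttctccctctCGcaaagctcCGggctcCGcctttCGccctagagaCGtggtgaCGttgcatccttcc
Rab22a: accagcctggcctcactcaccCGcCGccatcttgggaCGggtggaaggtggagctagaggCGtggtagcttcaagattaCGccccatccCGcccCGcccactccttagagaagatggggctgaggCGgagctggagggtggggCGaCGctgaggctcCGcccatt
Tbc1d9b: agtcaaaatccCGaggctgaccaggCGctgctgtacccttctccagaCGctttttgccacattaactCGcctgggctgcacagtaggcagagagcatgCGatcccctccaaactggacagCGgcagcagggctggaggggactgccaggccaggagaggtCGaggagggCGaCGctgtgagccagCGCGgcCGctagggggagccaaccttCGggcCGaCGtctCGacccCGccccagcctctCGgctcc

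All 4 stretches are dense in CG, with 22 CG in the 191 bases of Rab12, 18 in the 212 bases of Tbc1d23, 11 in the 165 bases of Rab22a and 18 in the 250 bases of Tbc1d9b. Over the whole 300-base window around the RefSeq start (250 before and 50 after) the counts were 37, 21, 27 and 31. The median was 25 over the 47 members past the floor found in the table, 21 over all 6994 such genes past the floor and 7 over all 27025 genes in it. High CG content was thus shared by the gene that was lower, the genes that were higher and most other members. The letters CACGTG, the E-box bound by regulators of lysosomal genes such as Tfeb among other factors, were found in the windows of 9 of the 47 members (19.1%), namely Rab5a, Rab20, Rab21, Rab24, Tbc1d15, Tbc1d20, Tbc1d13, Tbc1d5 and Tbc1d7, and in 10.7% of all genes past the floor. TGACTCA, the AP-1 motif, was found in 1 of 47 (2.13%), Rab34, against 3.76%. Neither was in the windows of the 4 genes printed. Both strands were searched, and a match is only a match of letters.

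The neighbours of Rab12 and Tbc1d23 were read next. Of the 3 nearest protein-coding genes on each side of Rab12, only Washc1, a WASH complex subunit 374 kb away, was past the floor, at 12.3 and 10.5 FPKM (log2 ratio 0.21). Mtcl1, Ddx11, Themis3, Ptprm and Lrrc30 were each under 1 FPKM in both libraries. Next to Tbc1d23, Nit2 (1.52 kb away, an omega-amidase) was at 8.34 and 8.25 FPKM, a log2 ratio of 0.01. Tomm70a, a mitochondrial import receptor, was at 22.2 and 17.0 FPKM (0.37), Cmss1 at 4.89 and 4.10 (0.21) and Filip1l at 22.6 and 15.5 (0.51), and Tmem45a2 and Tmem30c were listed at 0. None of the 12 neighbours was at least 2-fold apart on the FPKM + 1 scale, which genes near 0 FPKM can hardly reach. In plain FPKM Mtcl1 was further apart, at 0.0499 and 0.0129 from about 10 and 3 fragments, and Themis3 was at 0 and 0.0204.

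In the other members the libraries were closer. Counting intervals lay wholly above 0 for 23 of the 54 members past the floor, where they did for 43% of all genes past the floor, and wholly below 0 for 13, where they did for 20.3%. By family, 9 Rab genes had intervals above 0 and 13 below, and 14 TBC1D genes had intervals above 0 and 0 below; the difference between the families was not tested. In the plot of ratios the widest interval is that of Rab4a, at 1.18 and 1.22 FPKM from about 45 and 47 fragments, which ran from -0.66 to 0.58.

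**Figure D2:**
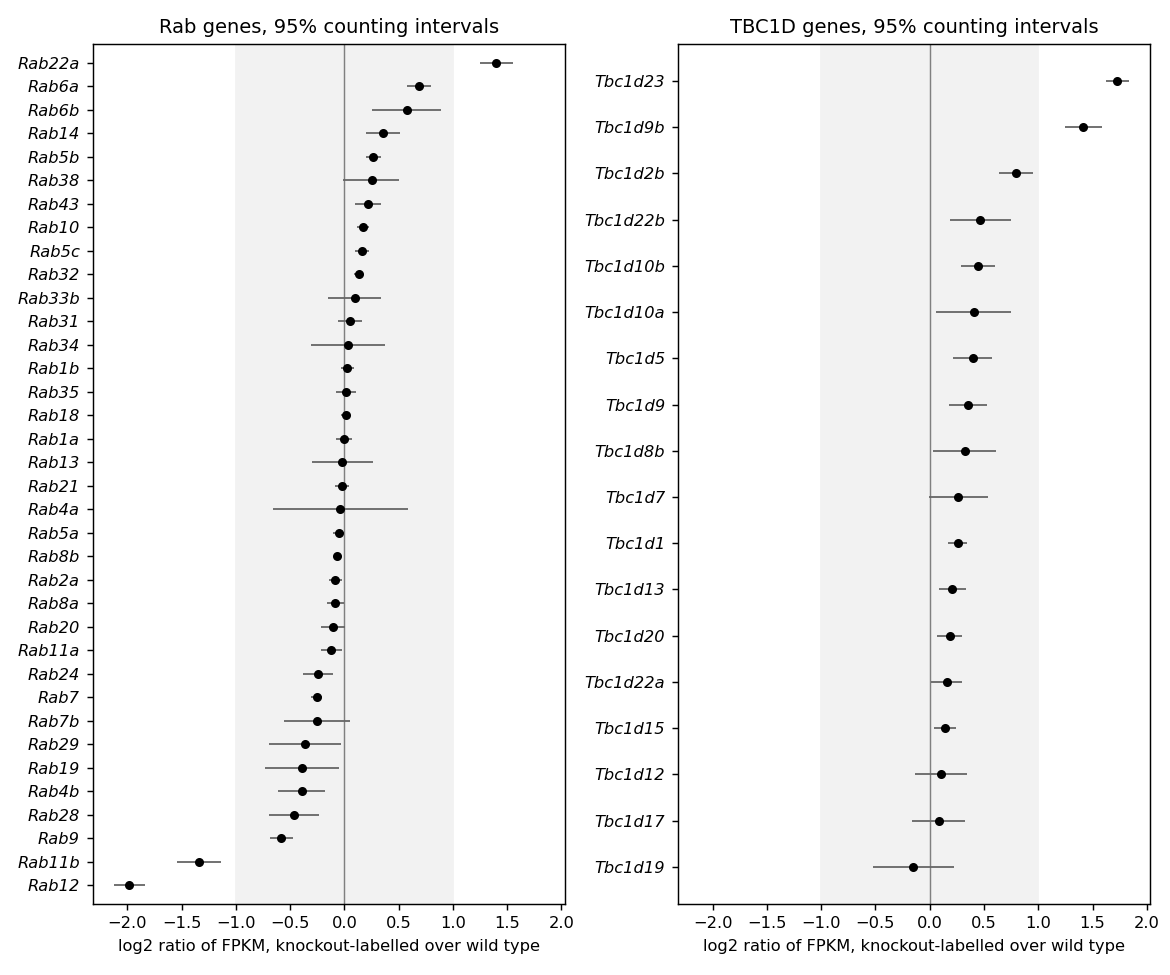
Log2 ratio of FPKM (without the added 1), knockout-labelled over wild-type library, for each of the 54 members past the floor, with exact 95% counting intervals as lines and the range within 2-fold shaded in grey. Rab genes lie on both sides of 0, from Rab12 with an interval of -2.12 to -1.84 to Rab22a with 1.25 to 1.55, and of the TBC1D genes only Tbc1d19 has a point below 0.

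Rab genes of the endoplasmic reticulum and Golgi numbered 10 past the floor, with a median log2 ratio of 0.03 beside 0.10 for all genes past the floor, of which 5705 of 9022 (63.2%) were above 0 and 3317 below. Rab6a, which runs traffic within and out of the Golgi, was at 18.7 and 11.6 FPKM, a log2 ratio of 0.64 with an interval of 0.57 to 0.80. Its relative Rab6b was at 1.52 and 1.02 FPKM (0.32) and Rab43 at 9.84 and 8.48 (0.19). Rab43 shares 4166 bases of its transcript with the overlapping gene Gm45140, at 0.159 and 0.238 FPKM. On the lower side, Rab19 was at 3.08 and 4.03 FPKM (-0.30) and Rab2a at 69.7 and 73.9 (-0.08). Rab1a at 38.1 and 38.2 FPKM (-0.01) and Rab18, which acts at the endoplasmic reticulum and lipid droplets, at 47.4 and 47.1 (0.01) had intervals that included 0. Rab6a overlaps Mrpl48 on the other strand, a gene at 3.59 and 3.69 FPKM, and no strand marking is described for these libraries; it also shares sequence with a processed pseudogene, as described with Rab11b.

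Rab genes of early and recycling endosomes and of traffic to the plasma membrane numbered 18, with a median of -0.02, 7 above 0 and 11 below (all genes: 63.2% above 0). Besides Rab12 and Rab22a, the genes furthest apart were Rab11b (recycling endosomes) at 1.67 and 4.22 FPKM, a log2 ratio of -0.97, and Rab4b (fast recycling) at 8.46 and 11.1 (-0.35). On the higher side were Rab14, which works between the Golgi and endosomes, at 5.66 and 4.41 FPKM (0.30), and Rab5b, which has a near-identical pseudogene, at 42.9 and 35.7 (0.26). Most of the group lay close together in both libraries, for example Rab35 at 25.5 and 25.2 FPKM and Rab21 at 31.6 and 32.2.

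All 4 late endosome and lysosome Rabs past the floor were below 0, with a median of -0.28, where 3317 of all 9022 genes past the floor were. Rab9, which returns mannose 6-phosphate receptors from late endosomes to the Golgi, was at 32.0 and 47.9 FPKM, a log2 ratio of -0.57 with an interval of -0.69 to -0.48. Rab7, which also has a near-identical pseudogene, stood at 99.4 and 118 FPKM (-0.25, interval -0.30 to -0.20) and Rab29, a partner of Lrrk2, at 4.07 and 5.24 (-0.30, interval -0.70 to -0.03). Rab7b at 1.39 and 1.66 FPKM had an interval of -0.55 to 0.05. The FPKM sum of the group was 137 in the library labelled knockout and 173 in the wild-type library. The median transcript length of these 4 genes was 1803 bases. The medians of all genes in their length bins ran from -0.12 for Rab9 and Rab29 to 0.21 for Rab7b. The median of these 4 bin values was -0.06. With the trend in length and GC content taken out the median of the group was -0.30.

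The 2 Rabs of lysosome-related organelles past the floor were slightly higher, Rab32 at 192 and 176 FPKM (0.13) and its relative Rab38 at 6.47 and 5.43 (0.21, with an interval that included 0). Of the 2 remaining Rabs, Rab24, associated with autophagy, was at 15.6 and 18.5 FPKM (-0.23) and Rab28, associated with cilia, at 3.48 and 4.79 (-0.37). A stretch of 408 bases of the Rab24 transcript also belongs to the overlapping gene Prelid1, at 362 and 397 FPKM, so the value of Rab24 is uncertain.

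Of the 18 TBC1D genes past the floor 17 were above 0 and 1 below, with a median of 0.22, where 63.2% of all genes past the floor were above 0 and their median was 0.10. Tbc1d2b, the closest relative of the Rab7 GAP Tbc1d2, was at 5.66 and 3.27 FPKM, a log2 ratio of 0.64 with an interval of 0.64 to 0.95. It overlaps Adamts7 on the other strand, at 0.702 and 0.370 FPKM. Smaller differences were those of Tbc1d10b at 8.39 and 6.16 FPKM (0.39), Tbc1d22b at 2.56 and 1.85 (0.32), and the retromer-bound Rab7 GAP Tbc1d5 at 3.93 and 2.99 (0.31). Tbc1d19 was the 1 gene below 0, at 1.89 and 2.09 FPKM (-0.10), with an interval of -0.53 to 0.22. The summed FPKM of all TBC1D genes was 139 in the library labelled knockout and 101 in the wild-type library, and that of all Rab genes 1202 and 1238. Tbc1d23 alone accounted for 15.5% and 6.43% of the TBC1D sums; without the members at least 2-fold apart the TBC1D median was 0.20.

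**Figure D3:**
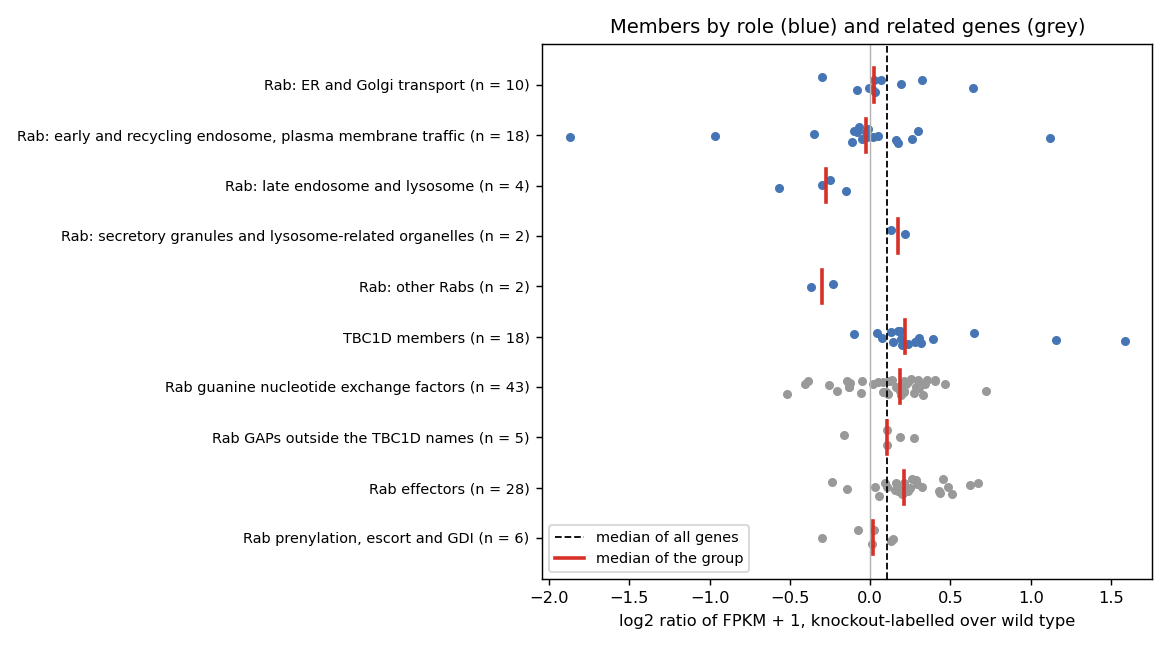
Log2 ratio of FPKM + 1, knockout-labelled over wild-type library, for every gene past the floor in each role group of members (blue) and 4 lists of related genes (grey), with the group median as a red bar. The late endosome group has all 4 points below 0 with a median of -0.28, the TBC1D group has 17 of 18 above 0 where 63.2% of all genes were, and the dashed line marks the median of all genes, 0.10.

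The ratio moved with transcript length over all genes in these libraries, and the families differ in length. The median of the longest annotated transcript was 2823.5 bases for the 36 Rab genes, 3980.5 for the 18 TBC1D genes and 3093 for all genes past the floor. Over all genes the median log2 ratio was -0.27 in the bin of shortest transcripts and 0.29 in the bin of longest. Across the 54 members, all from the same 2 libraries, Spearman's rho between length and ratio was 0.51, and across all genes past the floor 0.46. Within the families it was lower, 0.38 for the Rab genes and 0.27 for the TBC1D genes. With the trend in length and GC content taken out, the Rab median was -0.09 (11 above 0, 25 below) and the TBC1D median 0.06 (12 above, 6 below). On that scale Tbc1d23 was at 1.45 and Rab12 at -1.86, while Rab22a was at 0.86 and Tbc1d9b at 0.88, no longer 2-fold apart.

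The direction of the families also moved with the scaling of the libraries. With the libraries scaled to a median log2 ratio of 0 over all genes, 10 Rab genes were above 0 and 26 below (median -0.13), and 15 TBC1D genes above and 3 below (0.12). With the FPKM totals set equal, 24 Rab genes were above 0 and 12 below (median 0.06), so the sign of the Rab median turned. On that scale 17 TBC1D genes were above 0 and 1 below (0.30). A scaling shifts all genes alike: their median was 0.10 as reported and 0.18 with equal totals. The Rab median was below that of all genes, and the TBC1D median above it, under each of these scalings. The share of all genes above 0 was not counted under the scalings. With median scaling the 2-fold rule gave 3 higher members and 2 lower, and with equal upper quartiles 2 were higher and 2 lower, the second lower gene being Rab11b each time.

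**Figure D4:**
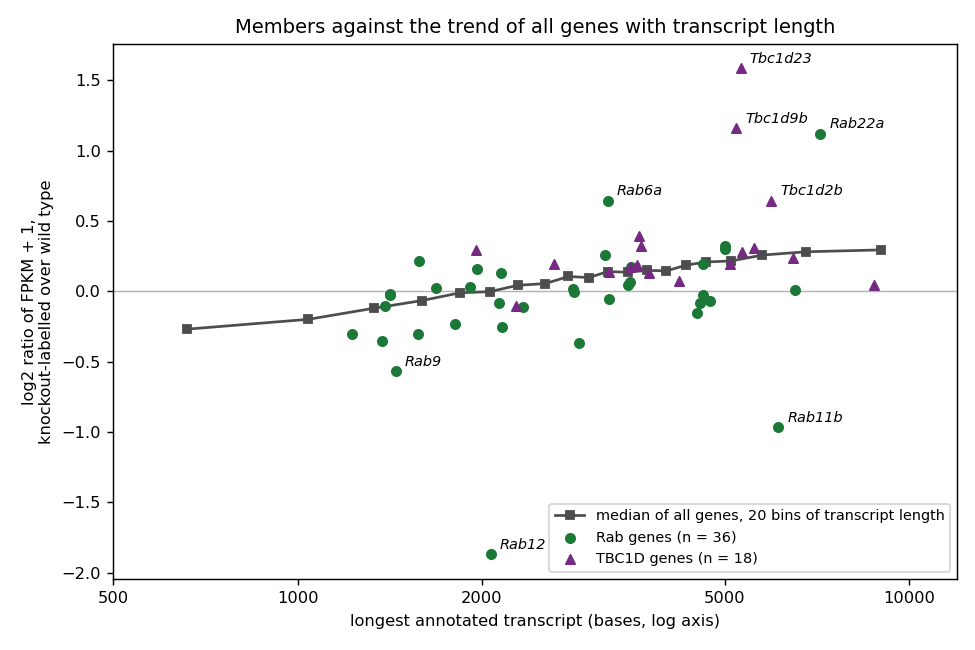
Log2 ratio of FPKM + 1 against the longest annotated transcript (bases, log axis) for the 36 Rab genes (circles) and 18 TBC1D genes (triangles) past the floor, with the median of all genes in 20 bins of length as squares. The line of all genes climbs from -0.27 to 0.29, many members lie near it, and Rab12, Rab11b, Tbc1d23, Tbc1d9b and Rab22a lie far from it.

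Several members have close relatives, and their shares of the joint FPKM were compared. Rab22a made up 30.2% of the FPKM of Rab22a and Rab31 in the library labelled knockout and 14.5% in the wild-type library, while Rab31 itself stood at 15.4 and 14.9 FPKM. Tbc1d9b made up 64.3% and 46.2% of the FPKM of Tbc1d9 and Tbc1d9b. In 3 other pairs the shares were close, as Rab1b held 69.5% and 69.0% of the Rab1 pair, Rab8b 84.3% and 84.2% of the Rab8 pair, and Rab6a 92.5% and 92.0% of the Rab6 pair, whose sum was 20.2 and 12.6 FPKM. Among the 3 Rab5 genes, which act on early endosomes, Rab5a held 32.5% and 36.4% and Rab5c 45.4% and 43.8%.

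Rab11b shares its sequence with a processed pseudogene, so its value is uncertain. Rab11b-ps2 on chromosome 19 (7398424 to 7399077) aligns with the Rab11b transcript over 654 bases at 99.8% identity, and it was listed at 39.0 and 31.4 FPKM. About 274 and 704 fragments were assigned to Rab11b and 684 and 560 to the copy, so the copy held 71.4% and 44.3% of their joint fragments. Added together they gave 958 and 1264 fragments, a log2 ratio of -0.38 with an interval of -0.50 to -0.25. The plain FPKM of Rab11b alone gave -1.34 and that of the copy alone 0.31. The shares and the joint ratio rest on the longest Rab11b transcript, 6109 bases, where the median of its transcripts is 1286. A shorter length would give Rab11b fewer fragments and move the joint ratio toward that of the copy, so its size and sign depend on this choice. A copy of at least 250 bases at 95% identity or more was found outside the gene for 7 of the 54 members past the floor, and for 47, Rab12, Tbc1d23, Rab22a and Tbc1d9b among them, none was found. Besides Rab11b and Rab9 the 7 were Rab2a, Rab5b, Rab6a, Rab7 and Rab8b, whose copies are processed pseudogenes not analysed here, so their values are also uncertain to the extent that fragments were divided with a copy. The identity was 99.4% for Rab5b, 98.4% for Rab7, 96.4% for Rab2a and 95.3% for Rab6a, and 100% over 279 bases for Rab8b. For Rab9 the listed copy held 0.401% and 0.578% of the joint fragments.

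**Figure D5:**
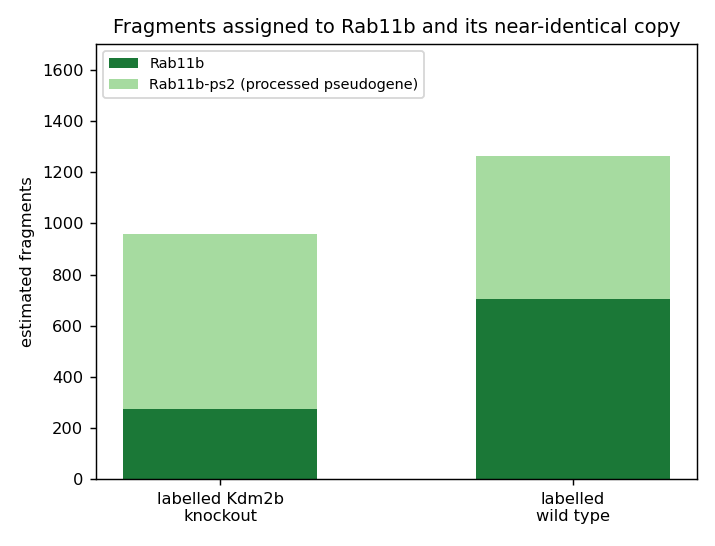
Estimated fragments assigned to Rab11b (dark) and to its processed pseudogene Rab11b-ps2 (light), stacked, in each library. The joint bars stand at 958 and 1264 fragments, closer together than the Rab11b parts at 274 and 704. The Rab11b parts assume its longest transcript, 6109 bases, and would be smaller with a shorter one.

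The regulators that act on Rabs were described from lists of related genes, of which 88 of 123 were past the floor with a median log2 ratio of 0.19, and -0.01 with the length and GC trend taken out. Among the GEFs, 43 of 51 were past the floor, 32 above 0 (74.4%, beside 63.2% of all genes past the floor) and 11 below. At least 1.5-fold apart was 1 GEF (2.33%), where 7.48% of all genes past the floor were. It was Dennd4a, a GEF of Rab10, at 7.40 and 4.10 FPKM (0.72). Dennd3, the GEF of Rab12, was at 2.65 and 1.64 FPKM (0.47), and Sbf1, a myotubularin-related protein, at 3.45 and 2.37 (0.40). On the lower side stood Rin2, a GEF of Rab5, at 16.5 and 24.1 FPKM (-0.52), Rab3il1 at 1.22 and 1.94 (-0.40) and the TRAPP subunit Trappc2l at 95 and 125 (-0.39).

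Of the Rab GAPs outside the TBC1D names 5 of 12 were past the floor, with a median of 0.11, from Evi5 at -0.16 to Rabgap1 at 0.27. The genes for prenylation, escort and GDI were close between the libraries, 6 of 7 past the floor with a median of 0.02. Gdi2, the main GDI here, stood at 147 and 155 FPKM (-0.07), and Rabac1, a GDI displacement factor, at 39.9 and 49.3 (-0.30). Of 28 effectors past the floor out of 46, 26 were above 0, where 63.2% of all genes past the floor were, and 2 were at least 1.5-fold higher. Their median was 0.21, and 0.02 with the length and GC trend taken out. The 2 higher effectors were Plekhm1, a Rab7 effector in lysosome fusion, at 3.77 and 2.00 FPKM (0.67), and Rab11fip1, a Rab11 effector, at 28.5 and 18.2 (0.62). Bicd2, which couples Rab6 vesicles to dynein, was at 5.68 and 3.69 FPKM (0.51), and Rabepk, which binds Rab9, at 1.33 and 1.75 (-0.24).

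Of 11 genes known as partners of Rab12 or Tbc1d23, 10 were past the floor, 9 of them above 0, where 63.2% of all genes past the floor were, and 1 below. Their median was 0.25, and 0.02 with the length and GC trend taken out. The gene below was Tfrc, the transferrin receptor, at 5.51 and 14.3 FPKM, a log2 ratio of -1.23 with an interval of -1.50 to -1.25. Rab12 takes part in the degradation of the receptor protein, which RNA values do not measure. Of the 88 related genes past the floor, Tfrc was the 1 (1.14%) that was at least 2-fold apart on the FPKM + 1 scale. Among all genes past the floor 1.88% were, so nothing is read from this count. Under the floor some related genes were further apart in plain FPKM, for example Rin1 at 0.465 and 0.105 and Mlph at 0.0124 and 0.104. These came from about 56 and 13 fragments for Rin1 and 2 and 13 for Mlph. Lrrk2 was at 3.77 and 2.53 FPKM (0.43). Fam91a1, a binding partner of Tbc1d23, was at 17.7 and 14.2 FPKM, the WASH complex subunit Washc2 at 6.22 and 4.87 and the golgin Golga4 at 8.31 and 6.61, with log2 ratios of 0.30, 0.30 and 0.29.

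Under the floor were 36 members, 23 Rab and 13 TBC1D genes, at which a fold is poorly measured. Listed at 0 in both libraries were 8 of them (Rab3c, Rab9b, Rab17, Rab39b, Rab44, Tbc1d10c, Tbc1d21 and Tbc1d22bos), and Rab3a, Rab25 and Rab42 were listed at 0 in the wild-type library and at up to 0.196 FPKM in the library labelled knockout. Rabs of regulated secretion were largely here, with Rab3d at 0.825 and 0.798 FPKM, Rab27a at 0.107 and 0.158 and Rab27b at 0.149 and 0.117. Rab39 was at 0.113 and 0.432 FPKM, from about 9 and 35 fragments, with an interval of -3.18 to -0.85. Tbc1d8 was at 0.264 and 0.109 FPKM, from about 32 and 13 fragments, with an interval of 0.35 to 2.38. A stretch of 420 bases of its transcript also belongs to the overlapping gene Rpl31, at 61.7 and 81.5 FPKM, so the value of Tbc1d8 is uncertain. Tbc1d31 was at 0.938 and 0.619 FPKM, with an interval of 0.13 to 1.09. Tbc1d4, the relative of Tbc1d1, stood at 0.241 and 0.257 FPKM. The genes of this paragraph were chosen after their values were seen.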

How the data were processed

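Per the file headers, the authors deposited FPKM values, 1 for each Ensembl gene in each library. Tools listed in the submitters' processing notes are HISAT2 (2.0.4), StringTie (1.3.0) and edgeR, and builds GRCm38.p4 and mm10. The sources used here do not give their roles or the annotation. Poly-A RNA was sequenced as paired ends, per the labels' protocols. No strand marking is described.

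Symbols, coordinates and transcript lengths came from GENCODE M21 (GRCm38), which gave a symbol for 34344 of 34745 listed genes and none for 401. Genes whose mean reached 1 FPKM were compared by the log2 ratio of FPKM with a pseudocount of 1, in Python 3.11.15 with SciPy 1.17.1. The product of FPKM and transcript length was a whole number of equal steps, within 0.02 of a fragment, for 92.5% of 1508 single-transcript genes with under 20 fragments in the library labelled knockout and 92.2% of 1445 in the wild-type library. Fragments per gene and exact Clopper-Pearson 95% intervals came from these steps. Neither includes more than counting error, and PCR copies of a molecule are counted as separate fragments. For the 80 members with several transcripts the fragments depend on the length assumed (the longest transcript). The calculations were tested on simulated data.

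No test across samples could be run with 1 library per group. FPKM ratios move with RNA fragmentation and with a few abundant genes. The members, lists and roles were chosen with earlier results of these data known. The text names Kdm2b, Rab12, Tbc1d23, members at least 1.5-fold apart, the 5 most abundant of each family, up to 3 genes furthest in either direction per role or list, and 3 neighbours on each side; other genes were chosen after their values were seen. RefSeq promoters were matched for 72 of 90 members. The alternatives were the pseudocount, 3 scalings, the floor, the fold threshold and removal of the trend of the ratio with length and GC content. The search for near-identical copies (at least 250 bases at 95% identity) was added after seeing the data.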

Additional observations from a re-analysis of the deposited data

How the results depend on the processing

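No result that was 2-fold apart turned its direction under any alternative, and Rab12 and Tbc1d23 stayed on their sides of 0 in each. Nothing is read from this, because the alternatives could hardly turn a ratio of that size. A pseudocount cannot change a sign, and the scalings multiplied the library labelled knockout by 0.907 to 1.07. The 3 members at least 2-fold higher became 1 with a pseudocount of 5 or after removal of the length and GC trend, 5 at a fold of 1.5 and 0 at a fold of 4. The 1 member at least 2-fold lower became 2 with a pseudocount of 0.1, with libraries scaled to a median log2 ratio of 0, with upper quartiles set equal, with the trend removed or at a fold of 1.5, and 0 at a fold of 4. The Rab median of -0.02 was -0.13 under median scaling and -0.14 under upper quartiles. The TBC1D median of 0.22 was 0.12 and 0.11 under those, and 0.0604 after removal of the length and GC trend. Rab12 was at -1.54 with a pseudocount of 5. Tbc1d23 was at 1.71 and 1.20 with pseudocounts of 0.1 and 5, at 1.46 and 1.45 under median and upper quartile scaling, and at 1.45 with the trend removed. With the median transcript length in place of the longest, the counting intervals ran from -2.24 to -1.73 for Rab12 and from 1.43 to 2.03 for Tbc1d23. Keeping protein-coding genes only left the counts at 3 and 1; this, the joint count of Rab11b with its copy and the median without the members at least 2-fold apart were chosen after seeing the data. Of 464 further values under alternatives for single genes and smaller groups 325 moved little and 139 moved. A gene moved if it shifted by more than the distance from the middle of its counting interval to either end, and a median if by more than 0.1. Genes without a finite interval were counted as moving little. Over all results 33 values changed sign, the Rab median with FPKM totals set equal (0.06) among them. Pseudocount, thresholds and scaling move these values by construction; the cause of the trend with length was not tested. No paired analysis was possible because each group holds 1 library and the labels carry no replicate numbers. Depth limits the 36 members under the floor, whose intervals are wide.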
